A study of Mus musculus with 2 samples.

Results

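The genes described here encode the subunits of the transcription factor NF-kB and the proteins that hold it in check. All 10 were found in the deposited table of 26037 genes by gene symbol, as 5 subunit genes (Rela, Rel, Relb, Nfkb1 and Nfkb2) and 5 inhibitor genes (Nfkbia, Nfkbib, Nfkbie, Nfkbiz and Tnfaip3). Their RNA was measured in 2 libraries, 1 labelled MMP9_KO and 1 labelled Control. MMP9 is a secreted protease that osteoclasts, the multinucleated bone-resorbing cells, make in large amounts. Both cultures were grown from bone marrow of C57BL/6 mice aged 6 to 8 weeks, first in 10% serum with the macrophage growth factor M-CSF at 5 ng/ml. The cells that floated then spent 3 days with 30 ng/ml M-CSF, after which those that had attached were used as macrophages and treated for 3 days with RANKL, the cytokine that induces osteoclasts. The column headings add the letters sh to MMP9_KO and NCsh to Control, which the labels do not explain. Whether the gene was deleted or knocked down is therefore unknown here, as is the number of mice behind a library. With 1 library per group no test was possible, and every difference below is a difference between these 2 libraries without a replicate check.

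NF-kB acts as dimers of the Rel family proteins. RelA, c-Rel and RelB carry activation domains, whereas the products of Nfkb1 and Nfkb2 are made as long precursors that are cut to DNA-binding subunits without such a domain. In the canonical route, IkB kinase marks the cytoplasmic inhibitors IkB-alpha, IkB-beta and IkB-epsilon for destruction and releases dimers such as RelA with the Nfkb1 product. In the noncanonical route, NF-kB-inducing kinase triggers the processing of the Nfkb2 precursor, which frees its dimer with RelB. NF-kB switches on genes of its own inhibitors, which closes a negative feedback loop. RANKL uses both routes, and mice that lack both Nfkb1 and Nfkb2 form no osteoclasts.

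Reads assigned to genes, as recovered from the deposited values, numbered 17741432 in MMP9_KO and 20678441 in Control. Mmp9 was at a normalised read count of 3.87 in MMP9_KO, against 139.4 in Control. Levels are normalised read counts, that is reads multiplied by 1 factor per library and not divided by gene length. The 95% intervals given in parentheses cover counting error and nothing else. A log2 ratio is that of MMP9_KO over Control with a pseudocount of 1 added to both levels, which understates the difference for low levels, and a gene is called higher or lower when it differs by at least 2-fold on that scale. Of 11126 compared genes, those with a mean level of at least 1, 445 were higher (4%) and 1066 were lower (9.58%), and the median log2 ratio was -0.16. That split depends on scaling, with 573 higher and 798 lower when the median ratio is set to 0 and 691 higher and 684 lower with equal sums. Markers of the cells also differed. Of 12 osteoclast markers 11 were lower and 0 were higher, with summed levels of 1027 in MMP9_KO and 7535 in Control. The marker within 2-fold, Car2, was at 598.7 in MMP9_KO and 491.4 in Control and held most of the MMP9_KO sum. The 11 include Mmp9 itself, whose lower level the MMP9_KO label already implies. Of 8 compared macrophage markers 6 were higher and 1 was lower, with sums of 1369 in MMP9_KO and 1008 in Control over all 10; 2 of the 8 passed the level filter through MMP9_KO alone, which set part of that count. Dendritic cell markers summed to 2.30 in MMP9_KO and 16.2 in Control, and the 2 compared of 5 were both lower. These were Itgax, at 0.665 in MMP9_KO and 11.2 in Control, and Zbtb46, at 1.235 in MMP9_KO and 4.398 in Control. Flt3 had 0 reads in both. B cell, T and NK cell, neutrophil, stromal, and mast and erythroid markers each summed to between 0 and 0.404 in MMP9_KO and between 0 and 0.0497 in Control, with Cd3e, Ly6g, Col1a1 and Cpa3 at 0 reads in both. The part of these shifts in cell markers in the NF-kB values was not tested, and in bulk RNA fewer cells of a type and less RNA per cell cannot be told apart.

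The 10 genes went different ways. Among them 1 was higher (Nfkbiz) and 3 were lower (Nfkb2, Nfkbie and Tnfaip3) by at least 2-fold, beside 4% of all compared genes higher and 9.58% lower, and 6 were within 2-fold. All 10 passed the level filter, and none passed it through 1 library alone. Their log2 ratios ran from -1.16 for Tnfaip3 to 3.08 for Nfkbiz. The 3 lower genes lie close to the threshold. When the MMP9_KO library was rescaled by the median ratio, by a trimmed mean or to equal sums, 0 members were lower by 2-fold. Nfkbiz was higher under every alternative tried.

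**Figure D1:**
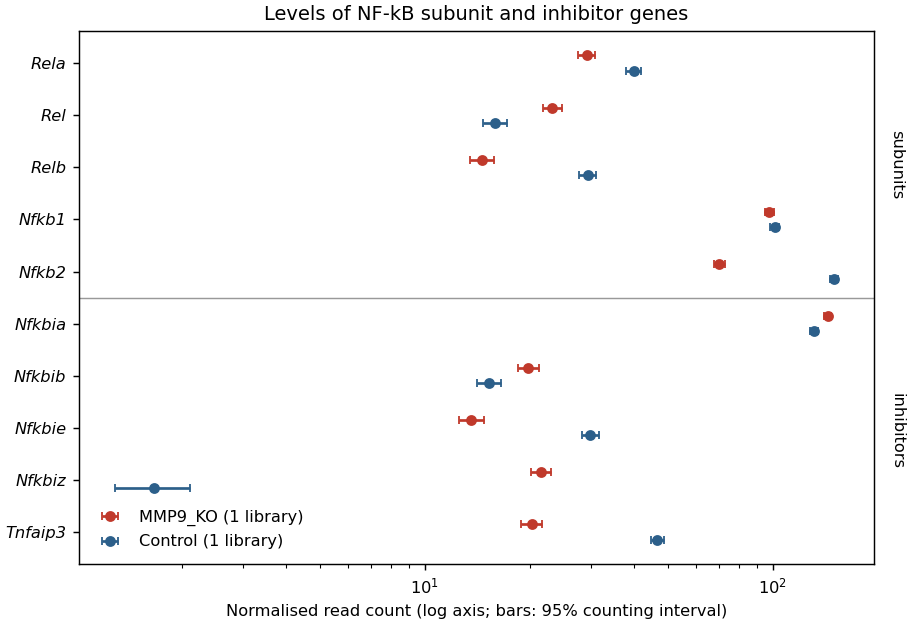
Normalised read counts of the 5 subunit genes (top) and 5 inhibitor genes (bottom) on a log axis, in the MMP9_KO library (red, upper point of each pair) and the Control library (blue), with bars for the 95% counting interval. Nfkbiz has the widest gap, at 21.6 in MMP9_KO and 1.67 in Control, while the points of Nfkb1 and of Nfkbia lie close together.

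Among the activating subunits, Rela, Rel and Relb each behaved differently. Rela (ENSMUSG00000024927, plus strand of chromosome 19, 5637483 to 5648130 in GRCm38) encodes the main partner in canonical dimers. Its level was 29.2 in MMP9_KO, from 1228 reads, and 39.9 in Control, from 1605 reads. This is 0.732 of the control level (0.679 to 0.788), and the log2 ratio of -0.44 became 0.12 after centring in bins of transcript GC content, so its direction depended on that choice. Rel (ENSMUSG00000020275, minus strand of chromosome 11, 23736847 to 23770970) encodes c-Rel, a subunit abundant in lymphoid and myeloid cells. The level of Rel was 23.3 in MMP9_KO and 15.9 in Control, which is 1.46 times the control level (1.32 to 1.62). With the values as deposited it was the 1 subunit of 5 with a log2 ratio above 0, at 0.52, and 9.99% of compared genes had a higher ratio. Relb (ENSMUSG00000002983, minus strand of chromosome 7, 19606217 to 19629438) encodes the activating subunit of the noncanonical dimer. Its level was 14.6 in MMP9_KO and 29.4 in Control, a 2.01-fold lower level (1.82 to 2.22). With the pseudocount its log2 ratio was -0.96, just within 2-fold.

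The precursor genes separated from each other. Nfkb1 (ENSMUSG00000028163, minus strand of chromosome 3, 135584655 to 135691547) had a level of 97.7 in MMP9_KO and 101.1 in Control. The ratio of 0.967 (0.926 to 1.01) includes 1, so no difference was detectable beyond counting error, and the sign of its log2 ratio of -0.05 turned positive under each of the 3 scalings and after centring by transcript length. Nfkb2 (ENSMUSG00000025225, plus strand of chromosome 19, 46304320 to 46312385) had a level of 70.1 in MMP9_KO, from 2952 reads, and 149.6 in Control, from 6020 reads. It was thus 2.13-fold lower (2.04 to 2.23), with a log2 ratio of -1.08 that moved to -0.53 after centring by GC content. Of the 4584 exon bases of Nfkb2, 531 are shared with the noncoding gene AC114539.1 and 299 with Psd, both on the opposite strand; Psd was at 1.73 in MMP9_KO and 3.65 in Control, and no level was matched to AC114539.1. Whether strand was used in counting is unknown here, so reads in the shared bases cannot be assigned to 1 gene.

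Summed over the 5 subunits, the level was 234.9 in MMP9_KO and 335.8 in Control, a ratio of 0.699. Most of the gap came from Nfkb2, the most abundant subunit per length in Control. The makeup of the subunit pool was compared after division of reads by the length of the longest annotated transcript. On that scale Nfkb1 made up 39.2% of the pool in MMP9_KO and 27.4% in Control, and Nfkb2 made up 30.3% in MMP9_KO and 43.7% in Control. Without a correction for GC content, the first place in the order thus passed between these 2 genes. Centring by GC content moved the log2 ratio of Nfkb2 from -1.08 to -0.53 and that of Nfkb1 from -0.05 to 0.00. The order was not recomputed on that scale. Rela accounted for 17.9% in MMP9_KO and 16.5% in Control and Relb for 7.43% in MMP9_KO and 10.1% in Control. Rel, the least abundant subunit in both libraries, accounted for 5.18% in MMP9_KO and 2.4% in Control.

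The cytoplasmic IkB genes did not move as a block. Nfkbia (ENSMUSG00000021025, minus strand of chromosome 12, 55489410 to 55492647) encodes IkB-alpha, the fast feedback inhibitor of canonical dimers. It had a level of 143.6 in MMP9_KO, from 6044 reads, and 131.2 in Control, from 5282 reads, or 1.09 times the control level (1.05 to 1.14). Nfkbib (ENSMUSG00000030595, minus strand of chromosome 7, 28758251 to 28767512) encodes IkB-beta, which is resynthesised more slowly. Its level was 19.8 in MMP9_KO and 15.3 in Control, or 1.29 times the control level (1.17 to 1.44). The exons of Nfkbib share 314 of 2169 bases with Ccer2 and 42 with Sirt2, both on the opposite strand. Nfkbie (ENSMUSG00000023947, plus strand of chromosome 17, 45555703 to 45563169) encodes IkB-epsilon, which restrains dimers that hold RelA or c-Rel. Its level was 13.6 in MMP9_KO and 29.9 in Control, 2.19-fold lower (1.99 to 2.43). Its log2 ratio of -1.08 was -0.70 after centring by GC content.

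Nfkbiz and Tnfaip3 stood at opposite ends of the group. Nfkbiz (ENSMUSG00000035356, minus strand of chromosome 16, 55811375 to 55838899) encodes IkB-zeta, a nuclear protein of the IkB family that is itself induced by NF-kB and can act as a coactivator of late inflammatory genes. It had 908 reads and a level of 21.6 in MMP9_KO, against 67 reads and a level of 1.67 in Control. The 12.96-fold higher level (10.1 to 16.9) gave a log2 ratio of 3.08, and 51 of the 11126 compared genes (0.458%) had a higher one. Across the alternatives its log2 ratio lay between 2.0 and 3.62. Tnfaip3 (ENSMUSG00000019850, minus strand of chromosome 10, 19000910 to 19015657) encodes a ubiquitin-editing enzyme that shuts off signalling upstream of IkB kinase. It had 853 reads and a level of 20.3 in MMP9_KO, against 1876 reads and a level of 46.6 in Control. Tnfaip3 was 2.30-fold lower (2.12 to 2.50), at a log2 ratio of -1.16, and 7.06% of compared genes had a lower ratio.

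**Figure D2:**
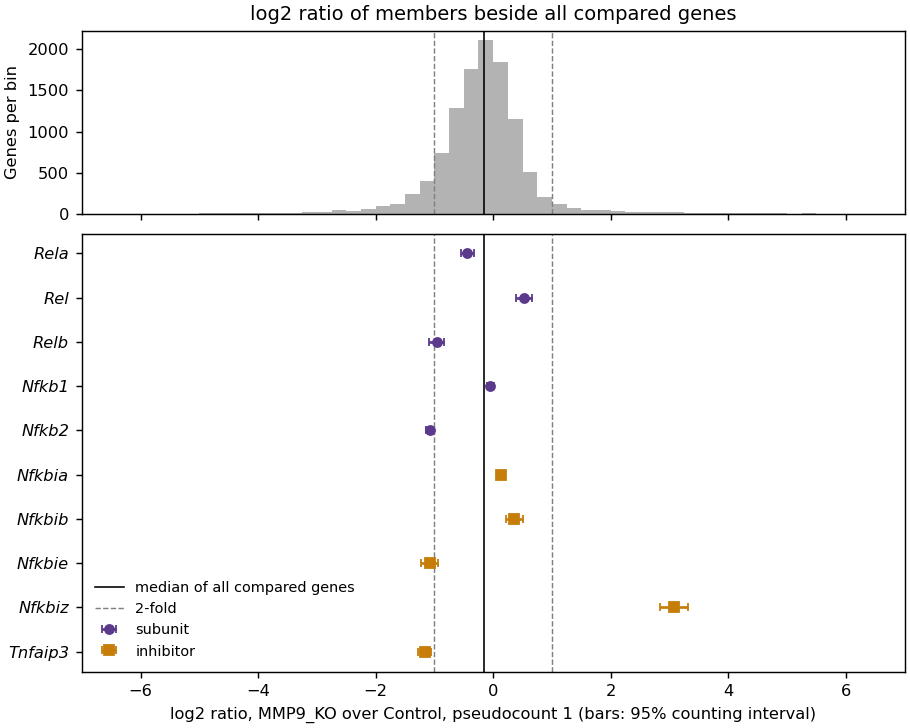
Upper panel, number of compared genes in bins of the log2 ratio of MMP9_KO over Control; lower panel, the log2 ratio of each member with its 95% counting interval, for subunits (circles) and inhibitors (squares). The solid line is the median of all compared genes at -0.16 and the dashed lines mark 2-fold; Nfkbiz at 3.08 is the 1 member beyond the upper line, and Tnfaip3, Nfkb2 and Nfkbie lie just beyond the lower one.

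Levels were also computed as reads per kilobase of the longest transcript, scaled to all reads assigned to genes in a library (RPKM computed here). That scaling sets the sums of both libraries equal, which raises MMP9_KO by 0.29 in log2 against the deposited factors. These values therefore give the order within a library and are not compared between libraries. Nfkbia was the most abundant member in both libraries, at 216 in MMP9_KO and 162 in Control. The next places went to Nfkb1 (55.9), Nfkb2 (43.3) and Rela (25.5) in MMP9_KO. In Control they went to Nfkb2 (75.7), Nfkb1 (47.4) and Rela (28.6). Neighbours that did not differ beyond their counting intervals were, in MMP9_KO, Rela and Nfkbib, Nfkbiz and Nfkbie, Nfkbie and Relb, and Tnfaip3 and Rel. In Control they were Nfkbie and Relb, and Tnfaip3 and Nfkbib. Nfkbiz was the lowest of the 10 in Control, at 0.787, and ranked above Nfkbie, Relb, Tnfaip3 and Rel in MMP9_KO, at 12.4, though its interval overlapped that of Nfkbie. Nfkbia made up 80.1% of the per-length level of the 5 inhibitors in MMP9_KO and 76.7% in Control. The share of Nfkbiz in that pool was 4.61% in MMP9_KO and 0.373% in Control, while that of Nfkbie was 3.98% in MMP9_KO and 9.16% in Control. Tnfaip3 held 2.88% in MMP9_KO and 6.93% in Control.

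Subunits were then set against inhibitors. The median log2 ratio was 0.13 over the 5 inhibitors and -0.44 over the 5 subunits, beside -0.16 over all compared genes, so the inhibitor median exceeded the subunit median by 0.57. The inhibitors ranged from -1.16 to 3.08 and the subunits from -1.08 to 0.52, so the range of the subunits lay wholly inside that of the inhibitors. With 5 genes a class, the gap depended on which were counted. Leaving out 1 inhibitor at a time, an alternative added after the values were seen, gave a gap of -0.04 without Nfkbiz or without Nfkbib, 0.07 without Nfkbia, and 0.68 without Nfkbie or without Tnfaip3. With the cytoplasmic inhibitors Nfkbia, Nfkbib and Nfkbie alone it was 0.57, and with the subunits Nfkb1, Rel and Rela alone it was 0.18.

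Ratios of reads between pairs of members within a library do not depend on how the libraries were scaled, although they are not corrected for gene length or GC content. Reads of Nfkbia per read of Rela numbered 4.92 in MMP9_KO (4.63 to 5.23) and 3.29 in Control (3.11 to 3.48), a change of 1.5 times (1.38 to 1.62). Centring by GC content brought the log2 ratios of Nfkbia and Rela closer together, at 0.42 and 0.12, from 0.13 and -0.44 as reported. Against Nfkb1, Nfkbia changed by 1.13 times (1.07 to 1.20). For Nfkbib and Rela the read ratio was 0.680 in MMP9_KO and 0.384 in Control, 1.77 times (1.56 to 2.01). Nfkbie and Tnfaip3 gave lower ratios in MMP9_KO, and Nfkbiz a higher one. Nfkbie had 0.585 reads per read of Rel in MMP9_KO and 1.88 in Control, 3.20-fold lower (2.78 to 3.69). Tnfaip3 had 0.695 reads per read of Rela in MMP9_KO and 1.17 in Control, 1.68-fold lower (1.51 to 1.88). Nfkbiz had 0.221 reads per read of Nfkb1 in MMP9_KO and 0.0165 in Control, 13.4-fold higher (10.4 to 17.2).

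Within the subunits, the partners of the noncanonical dimer kept close to a fixed proportion. Nfkb2 had 4.8 reads per read of Relb in MMP9_KO (4.40 to 5.24) and 5.09 in Control (4.78 to 5.42). The ratio between libraries, 0.943 (0.848 to 1.05), includes 1. The proportion of Rel to Rela did differ, at 0.797 in MMP9_KO (0.733 to 0.867) and 0.399 in Control (0.364 to 0.438), which is 2 times (1.76 to 2.26). That size depends on GC content, since centring by it gave log2 ratios of 0.49 for Rel and 0.12 for Rela. As reported these were 0.52 and -0.44.

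**Figure D3:**
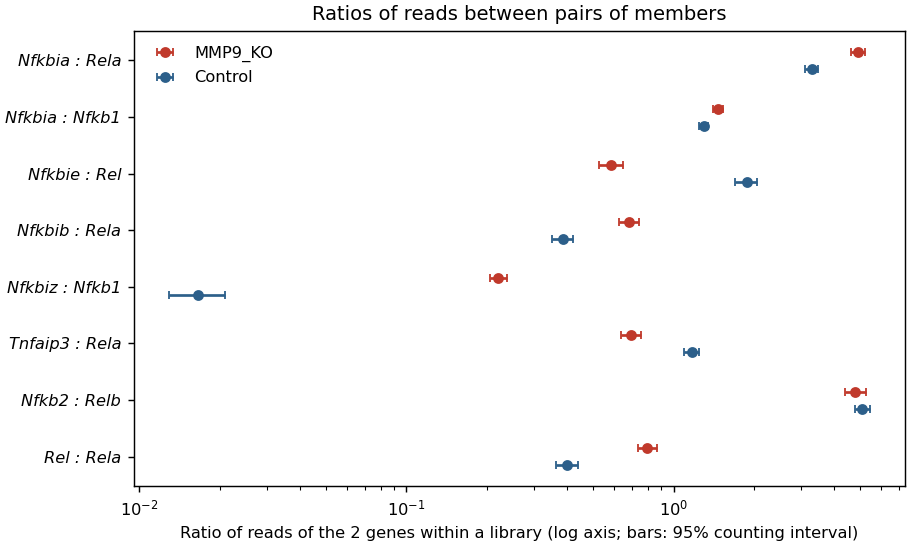
Ratio of the reads of the 2 named genes within each library, on a log axis, for MMP9_KO (red, upper point) and Control (blue), with bars for the 95% counting interval. The intervals overlap for Nfkb2 to Relb, at 4.8 in MMP9_KO and 5.09 in Control, and are far apart for Nfkbiz to Nfkb1.

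Because NF-kB binds the promoters of several of its own regulators, RefSeq promoter windows (GRCm38.p6) were searched for the 10-base kB consensus on both strands. A window holds 250 bases before to 50 after an annotated start. Windows were given for 7 of the 10 genes, and 5 of these genes (Rel, Nfkb2, Nfkbia, Nfkbie and Tnfaip3) had a match in at least 1 window. These were 7 of the 10 windows of the members, beside 8.46% of all 32851 windows; windows of 1 gene can overlap. Rela and Nfkbib had none. No window was given for Nfkb1, Relb or Nfkbiz, so these were not searched. A looser form, which fixes only the outer G and C bases of the consensus, occurred in 50.8% of all windows and in 6 of the 7 genes. A match describes these letters and is not evidence of binding. The genes with a match include the 3 lower ones, Rel with the opposite sign, and Nfkbia, which was near its control level. Since Nfkbiz, the member called higher, was not searched, matches cannot be set against the direction of change. The windows of the 3 lower genes and of the most abundant inhibitor are shown 5′ to 3′, with consensus matches in capitals; runs longer than 10 capitals are overlapping matches. For Nfkb2 and Tnfaip3 the first of several annotated starts is shown.
Nfkbia, chr12:55492598-55492897, minus strand: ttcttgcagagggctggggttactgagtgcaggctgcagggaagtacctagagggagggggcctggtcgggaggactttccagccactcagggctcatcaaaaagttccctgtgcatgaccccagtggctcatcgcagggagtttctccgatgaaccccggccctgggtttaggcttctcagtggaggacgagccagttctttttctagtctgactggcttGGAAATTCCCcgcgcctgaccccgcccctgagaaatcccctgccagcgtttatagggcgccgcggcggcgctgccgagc
Tnfaip3, chr10:19015361-19015660, minus strand: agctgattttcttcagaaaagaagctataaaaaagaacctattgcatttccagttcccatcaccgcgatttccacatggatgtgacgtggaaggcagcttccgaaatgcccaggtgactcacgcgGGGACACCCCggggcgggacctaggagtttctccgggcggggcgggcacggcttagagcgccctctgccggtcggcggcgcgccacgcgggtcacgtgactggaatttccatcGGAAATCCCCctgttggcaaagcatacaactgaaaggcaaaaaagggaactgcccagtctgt
Nfkbie, chr17:45555450-45555749, plus strand: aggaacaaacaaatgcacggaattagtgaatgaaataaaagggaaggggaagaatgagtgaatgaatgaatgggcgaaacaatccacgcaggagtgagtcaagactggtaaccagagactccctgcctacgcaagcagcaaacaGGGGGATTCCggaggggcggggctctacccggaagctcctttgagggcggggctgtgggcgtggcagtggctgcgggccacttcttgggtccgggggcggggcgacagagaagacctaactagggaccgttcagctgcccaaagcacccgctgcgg
Nfkb2, chr19:46304487-46304786, plus strand: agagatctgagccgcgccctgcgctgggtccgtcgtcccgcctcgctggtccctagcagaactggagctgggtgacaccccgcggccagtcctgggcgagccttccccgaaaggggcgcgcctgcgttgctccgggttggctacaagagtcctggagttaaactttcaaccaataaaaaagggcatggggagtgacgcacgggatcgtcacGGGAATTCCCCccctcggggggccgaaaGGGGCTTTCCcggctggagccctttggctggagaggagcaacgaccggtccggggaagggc
In Nfkbia the match GGAAATTCCC lies on the minus strand of the window, beginning 29 bases before the start. The match of Nfkbie begins 106 bases before its start. Tnfaip3 has matches that begin 125 and 12 bases before, and Nfkb2 has overlapping ones from 39 bases before and another from 11 bases before.

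Other inhibitors of the pathway were taken from a list of 18 IkB-related and ubiquitin-editing genes, all of which were compared. Of these 2 were higher and 0 were lower, beside 4% and 9.58% of all compared genes, and 16 were within 2-fold. The median log2 ratio was 0.02 beside -0.16 over all compared genes. Nfkbid, which encodes another nuclear IkB protein, was 47.4 in MMP9_KO and 19.7 in Control, 2.41-fold higher (2.22 to 2.62). Tnip3, whose product binds the Tnfaip3 protein, was 32.8 in MMP9_KO and 12.8 in Control, 2.56-fold higher (2.32 to 2.84). Bcl3, also a nuclear IkB gene, was 10.2 in MMP9_KO and 8.05 in Control. Tnip1, also a partner of the Tnfaip3 protein, was 41.5 in MMP9_KO and 32.8 in Control, and Tnfaip8l2 was 14.8 in MMP9_KO and 8.80 in Control. Otud7b, a deubiquitinase of the noncanonical route, had a log2 ratio of -0.89, with 40.6 in MMP9_KO and 75.9 in Control. Thus of the nuclear IkB genes named here Nfkbiz and Nfkbid were called higher and Bcl3 was not.

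Of 24 genes for the kinases that act on IkB proteins and their activators, 2 were higher and 0 were lower, beside 4% and 9.58% of all compared genes, with a median log2 ratio of 0.01 beside -0.16. The kinase subunit genes Chuk and Ikbkb were, in that order, 50.3 in MMP9_KO and 38.2 in Control, and 56.5 in MMP9_KO and 57.7 in Control. The scaffold subunit gene Ikbkg was 31.97 in MMP9_KO and 51.7 in Control. The genes called higher were Ikbke, which encodes a noncanonical IkB kinase, at 11.1 in MMP9_KO and 1.29 in Control (8.57-fold, 6.42 to 11.6), and Ripk2, a kinase of the NOD receptors, at 23.3 in MMP9_KO and 8.65 in Control (2.69-fold, 2.38 to 3.05). Irak1 was 45.7 in MMP9_KO and 75.3 in Control, and Tab1 was 9.62 in MMP9_KO and 16.7 in Control. Upstream in the noncanonical route, 1 of 11 compared genes was higher and 0 were lower, beside 4% and 9.58% of all compared genes, and the median log2 ratio was 0.15 beside -0.16. The higher gene was the receptor gene Cd40, at 9.31 in MMP9_KO and 0.646 in Control (14.4-fold, 9.69 to 22.3), which passed the level filter through MMP9_KO alone. Map3k14, which encodes NF-kB-inducing kinase, was 9.76 in MMP9_KO and 7.68 in Control. Traf3, which keeps that kinase low, was 76.0 in MMP9_KO and 60.1 in Control, and Traf2 was 23.95 in MMP9_KO and 28.2 in Control. The RANKL receptor gene Tnfrsf11a was 66.0 in MMP9_KO and 128.3 in Control, at a log2 ratio of -0.95.

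**Figure D4:**
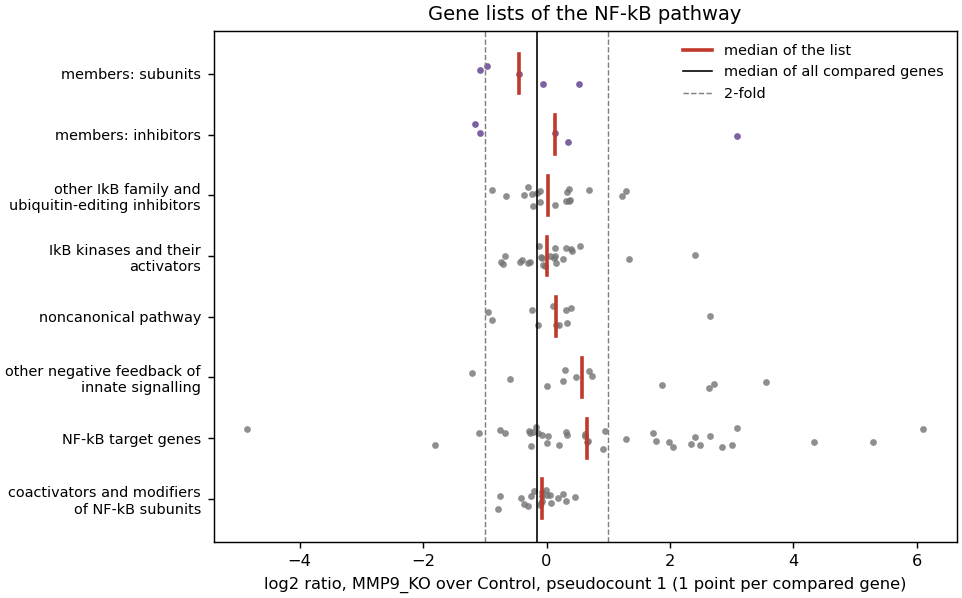
log2 ratio of MMP9_KO over Control for each compared gene (points) of the subunits, the inhibitors and 6 lists of pathway genes, with the list median in red, the median of all compared genes as a solid line and 2-fold as dashed lines. The lists overlap, so some genes are shown more than once. The kinase list centres near 0.01, while the target genes spread from -4.85, the value of Mmp9 itself, to 6.10.

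Negative feedback genes outside the NF-kB family gave 4 higher and 1 lower of 12 compared, beside 4% higher and 9.58% lower over all compared genes, with a median log2 ratio of 0.58 beside -0.16. The highest was Irak3, an inhibitory member of the IRAK family, at 14.9 in MMP9_KO and 0.348 in Control (42.95-fold, 25.4 to 79.02). Zc3h12a, which encodes an RNase that degrades cytokine mRNA, was 17.5 in MMP9_KO and 4.03 in Control (4.36-fold, 3.67 to 5.20). Socs3 was 14.5 in MMP9_KO and 1.37 in Control, and Atf3, a repressor of inflammatory transcription, was 8.86 in MMP9_KO and 0.596 in Control. The lower gene was Tollip, an inhibitor of Toll-like receptor signalling, at 18.3 in MMP9_KO and 43.3 in Control (2.36-fold lower, 2.17 to 2.57). Of these 12 genes 2, Irak3 and Atf3, passed the level filter through MMP9_KO alone. Both are among the 4 called higher, so the filter set part of that count.

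Textbook targets of NF-kB spread widely. Among 38 compared of 50 listed, 15 were higher and 3 were lower, beside 4% and 9.58% of all compared genes, with a median log2 ratio of 0.65 beside -0.16. The lists overlap, and Ikbke, Cd40 and Tnip3, given above as higher in other lists, are also among the 15. Of the 38, 7 passed the level filter through MMP9_KO alone, so the counts over compared genes are not counts over the list. These 7, Nos2 and Cxcl2 among them, all belong to the 15 called higher, so the filter set part of that count and raised the median. On the log2 scale with the pseudocount Nos2 had the largest ratio, at 81.1 in MMP9_KO and 0.199 in Control, followed by Ccl4 at 93.4 in MMP9_KO and 1.42 in Control and Cxcl2 at 22.8 in MMP9_KO and 0.174 in Control; without the pseudocount Cxcl2 (131-fold) came before Ccl4 (65.97-fold). Tnf was 85.5 in MMP9_KO and 9.22 in Control. Mmp9, a listed target but also the gene named in the library label, had the lowest ratio and is among the 3 lower. Il1b had 19 reads in MMP9_KO and 0 in Control. Set against a limit of 3 reads in Control this is 6.06-fold higher, without counting error in MMP9_KO. Il6 had 3 reads in MMP9_KO and 0 in Control, too few for a fold. Lcn2, named after its values were seen and below the level filter, had 70 reads in MMP9_KO and 0 in Control. Against the same limit this is 22.3-fold higher, again without counting error in MMP9_KO. Members of the same list stayed near their control level, such as Cflar, a survival gene named after its values were seen, at 105 in MMP9_KO and 110.8 in Control.

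**Figure D5:**
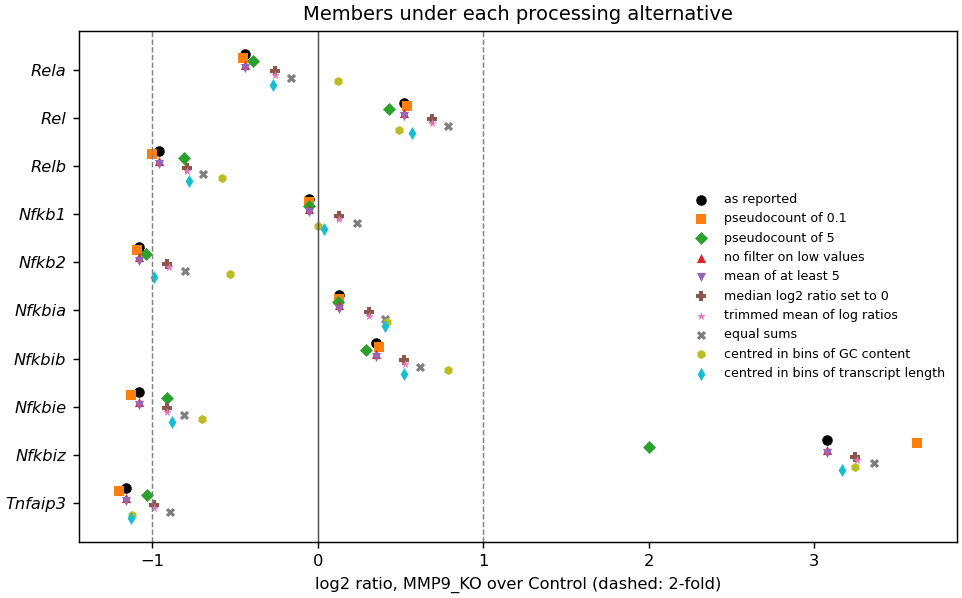
log2 ratio of MMP9_KO over Control for each member as reported (black) and under 9 processing alternatives (symbols), with 0 as a solid line and 2-fold as dashed lines. Nfkbiz stays beyond 2-fold throughout, between 2.0 and 3.62, while Nfkb2, Nfkbie, Tnfaip3 and Relb lie on either side of the lower line and Rela and Nfkb1 on either side of 0.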

How the data were processed

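Per the labels' protocols, libraries were made from polyadenylated RNA and read on an Illumina machine. TopHat and the mouse build mm9 are named in the submitters' processing notes; how reads were counted and normalised, and with which annotation and strand setting, is unknown here. The table deposited by the authors holds log2 values. Although titled as RPKM, the converted values were whole multiples of 1 step per library for genes of any length (99.99% within 0.05 of a whole read in each library). They were therefore treated as scaled reads. A gene without a read carried 0.9 of the step and was set to 0; 3 reads, taken as the limit for 0, equal a level of 0.0713 in MMP9_KO and 0.0745 in Control. Intervals and limits cover counting error only, since sequenced reads lacking molecular identifiers need not be independent molecules.

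Fold intervals were exact conditional binomial intervals of the reads, without a pseudocount; those of pair ratios used the normal approximation on the log scale. Positions, transcript lengths and GC content came from GENCODE M21 (GRCm38), another build than the alignment, matched by Ensembl identifier for 23607 genes, and cover 96.2% of compared genes. Scripts (Python 3.11.15, numpy 2.4.6, pandas 2.3.3, scipy 1.17.1) were tested on simulated data. Named genes are the 10 members, Mmp9 and, in each of 6 lists, the first 3 entries and the 4 compared entries with the largest absolute log2 ratio; exceptions are marked. Genes of like pattern were not sought, since 2 libraries give each gene 1 ratio. The members, lists and alternatives were chosen with earlier results of these data known.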

Additional observations from a re-analysis of the deposited data

How the results depend on the processing

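No paired analysis was possible because each group had 1 library, which also meant that none could be left out. Centring used 20 bins. With a pseudocount of 5, the compared genes past 2-fold numbered 255 higher and 603 lower. Setting the median log2 ratio to 0 or scaling by a trimmed mean, each a shift of 0.18, gave a subunit median of -0.26, an inhibitor median of 0.31 and 0 lower members. Equal sums, a shift of 0.29, gave -0.16, 0.41 and 0 lower members, with 691 genes higher and 684 lower. Centring by GC content gave a subunit median of 0.00, an inhibitor median of 0.42, a gap of 0.42, 1 lower member and 682 lower genes. Centring by transcript length gave -0.27, 0.41 and 1 lower member. The mean over inhibitors was 0.26. With Nfkb1, Rel and Rela alone the subunit median was -0.05 and the gap 0.18. Leaving out 1 inhibitor, added after the values were seen, gave inhibitor medians of -0.48 without Nfkbiz or Nfkbib, -0.36 without Nfkbia and 0.24 without Nfkbie or Tnfaip3, with gaps of -0.04, 0.07 and 0.68, since the median then falls between other members by construction. A common scaling factor shifts both medians alike, so it cannot change the gap beyond the effect of the pseudocount. The cause of the other shifts was not tested. Of 90 alternative values of single members 44 stayed inside the counting interval of the reported value, 46 left it and 0 called members changed sign. Depth limits Nfkbiz most among the members, with 67 reads in Control.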

Other observations

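Of 20 compared genes for coactivators and modifiers of NF-kB subunits, 0 were higher and 0 lower, beside 13.6% past 2-fold in either direction over all compared genes, with a median log2 ratio of -0.08 beside -0.16 over all compared genes. The acetyltransferase genes Crebbp and Ep300 were, in that order, 35.5 in MMP9_KO and 38.5 in Control, and 73.7 in MMP9_KO and 78.4 in Control. Ncoa1 was 10.8 in MMP9_KO and 12.6 in Control. Hdac3, a deacetylase of RelA, was 93.7 in MMP9_KO and 67.9 in Control. Rps3, a ribosomal protein that also binds RelA, had the lowest ratio of the list, at 223.1 in MMP9_KO and 386.2 in Control, followed by the kinase gene Prkaca at 25.4 in MMP9_KO and 43.3 in Control. Cdk9, the kinase of the elongation factor that RelA recruits, was 74.04 in MMP9_KO and 98.8 in Control.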
